A study of Mus musculus with 16 samples.

Results

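The genes described here are Gcg, Sst, Ppy, Pyy, Npy, Ghrl, Irx1, Irx2 and Hhex, which encode hormones and transcription factors of islet cells other than β cells. They were taken by name from the deposited count table, where all 9 were found among 22869 genes. The libraries came from β cells of old and young mice, sorted by flow cytometry from isolated islets. For RNA, 3 old libraries were labelled 15, 16 and 17 months and 2 young libraries 4 to 6 weeks, all from MIP-GFP/Bl6 mice, in which a mouse insulin promoter drives the green fluorescent protein used for the sort. Each RNA sample was a pool of 5 to 10 mice, so differences between single animals were averaged before sequencing. Histone marks and CpG methylation were read in C57Bl6 β cells, labelled 16 to 18 months for old and 4 to 6 weeks for young mice. The series' design text gives 18 to 22 months for the old bisulfite pool, and names 3 young RNA replicates and 2 old H3K27me3 replicates, of which 2 and 1 were used here. Cells of several mice were pooled for these assays too, 10 mice for the young bisulfite library. For H3K4me1 and H3K27me3 there was 1 list per age, for H3K27ac 1 young list, and for methylation 1 bisulfite library per age. The series asked how transcripts, chromatin and methylation of β cells differ between old and young mice.

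An islet holds β cells, which make insulin, and smaller numbers of α, δ, PP and ε cells. Gcg encodes proglucagon, from which α cells cut glucagon, the hormone that raises blood glucose. Sst encodes somatostatin of δ cells, which restrains the release of both insulin and glucagon. Ppy (pancreatic polypeptide), Pyy (peptide YY) and Npy (neuropeptide Y) form a family of related peptides that act on the same group of Y receptors, and Ghrl encodes ghrelin, the hormone of ε cells. Irx1 and Irx2 are Iroquois homeobox factors that mark α cells among islet cells, and Hhex is a homeobox factor needed for δ cells in the mouse. In mature β cells the hormone genes of other islet cells are mostly silent, and H3K27me3, the mark placed by Polycomb repressive complex 2, lies over many genes of other cell types.

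In build mm9, which the files use, Gcg spans chr2:62312587-62321710, Sst chr16:23889667-23890930, Ghrl chr6:113666113-113669874 and Irx1 chr13:72095680-72101171, all on the minus strand. Ppy (chr11:101961245-101962614) and Pyy (chr11:101967991-101969090) are neighbours on the minus strand. Npy (chr6:49772728-49779504), Irx2 (chr13:72766426-72771642) and Hhex (chr19:37509331-37515221) lie on the plus strand. Irx1 and Irx2 share a chromosome, with starts 665255 bases apart.

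The 250 bases before the start of 5 of the genes are printed to show the CpGs whose calls are given below. These CpGs are few in the printed hormone genes and many in Hhex. The 250 bases of Npy, a hormone gene not printed, held 21 CpGs. The sequences are from RefSeq, build GRCm38.p6, in lower case and 5′ to 3′ along the gene, with each CpG in capitals.
Gcg, chr2:62483654-62483903, minus strand: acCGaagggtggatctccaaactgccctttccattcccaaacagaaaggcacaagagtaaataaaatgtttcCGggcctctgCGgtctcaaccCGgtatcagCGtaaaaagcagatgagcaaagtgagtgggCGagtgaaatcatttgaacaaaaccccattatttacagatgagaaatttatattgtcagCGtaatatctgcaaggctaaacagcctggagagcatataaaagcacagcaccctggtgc
Sst, chr16:23890845-23891094, minus strand: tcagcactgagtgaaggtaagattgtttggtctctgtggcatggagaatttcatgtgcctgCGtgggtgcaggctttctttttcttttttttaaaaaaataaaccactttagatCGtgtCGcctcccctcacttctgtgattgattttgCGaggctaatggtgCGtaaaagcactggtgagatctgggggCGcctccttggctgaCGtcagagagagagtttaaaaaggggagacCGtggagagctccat
Ppy, chr11:102101320-102101569, minus strand: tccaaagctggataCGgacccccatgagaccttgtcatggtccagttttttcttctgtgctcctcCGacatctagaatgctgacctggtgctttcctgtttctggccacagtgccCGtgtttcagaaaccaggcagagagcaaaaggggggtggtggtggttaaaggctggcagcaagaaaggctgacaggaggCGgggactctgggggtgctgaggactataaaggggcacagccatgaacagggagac
Pyy, chr11:102107833-102108082, minus strand: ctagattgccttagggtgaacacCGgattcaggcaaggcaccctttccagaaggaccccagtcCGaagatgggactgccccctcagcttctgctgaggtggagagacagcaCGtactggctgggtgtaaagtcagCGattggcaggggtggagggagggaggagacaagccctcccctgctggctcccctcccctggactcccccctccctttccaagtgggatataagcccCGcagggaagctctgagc
Hhex, chr19:37434591-37434840, plus strand: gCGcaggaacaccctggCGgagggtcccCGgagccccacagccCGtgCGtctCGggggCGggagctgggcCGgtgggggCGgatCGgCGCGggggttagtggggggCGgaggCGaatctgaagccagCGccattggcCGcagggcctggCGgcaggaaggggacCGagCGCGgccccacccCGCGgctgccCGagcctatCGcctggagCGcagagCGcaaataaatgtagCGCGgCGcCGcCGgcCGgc
RefSeq promoter entries were found for 8 members. Each sequence was placed on the deposited CpG positions by its CpG spacing alone, which matched every CpG of the 300-base entry (these bases and the next 50) at 1 offset within 3000 bases of the deposited start. The Gcg, Sst and Hhex starts were the deposited ones, that of Ppy lay 19 bases upstream of the deposited start, and of 2 Pyy entries 1 had the deposited start and the printed one lay 56 bases upstream of it. The Hhex sequence held 32 CpGs and had 76% G and C, whereas the Gcg sequence held 7 CpGs and had 44.8% G and C. The letters TGACGTCA, the cyclic AMP response element, occur in the Sst sequence from base -48 and in 1.55% of 32851 RefSeq promoters cut to the same 250 bases. That word is its own reverse complement, so both strands are covered. TATAAA was searched on both strands, was found in the Gcg and Ppy sequences among the 8, and is held by 12.4% of all promoters.

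In the RNA, 7 of the 9 genes fell in old β cells, and 8 of them were lower in each old library than in both young libraries. The summed level of all 9 was 915, 1877 and 1981 CPM (counts scaled to library size with TMM factors) in the old libraries, against 4855 and 40028 CPM in the shallower and deeper young libraries. Across the whole table, 7.93% of 15544 tested genes fell in old cells and 3.17% rose, with edgeR's quasi-likelihood test at a Benjamini-Hochberg adjusted p under 0.05. Every old library lay below both young ones for 24.5% of tested genes. All 9 members passed the filter on low counts, and their median log2 change was -3.71, against -0.05 over all genes tested. When 1 old library was left out, 4, 4 and 2 of the 9 were called (without old library 1, 2 and 3). In the same refits 323, 441 and 219 genes of the whole table were called. Leaving out 1 young library keeps a single young sample and moved single members. The log2 change of Gcg was -0.44 and that of Irx1 -2.89 without the deeper one, and that of Ghrl +1.40 without the shallower one. Since these are bulk libraries, fewer cells of a type and less RNA per cell cannot be told apart. The names of the young columns also carry a tag that differs between them, and this tag matches no sample label. The young libraries are therefore named here by their depth, with 6377620 and 12892122 gene counts, and the old ones held 23559906 to 33562820. What the tag stands for is not given, it cannot be separated from depth, and its part in the differences between the young libraries was not tested. The labels name pools and not the animals behind each young column, so the p-values measure the spread between these samples.

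**Figure D1:**
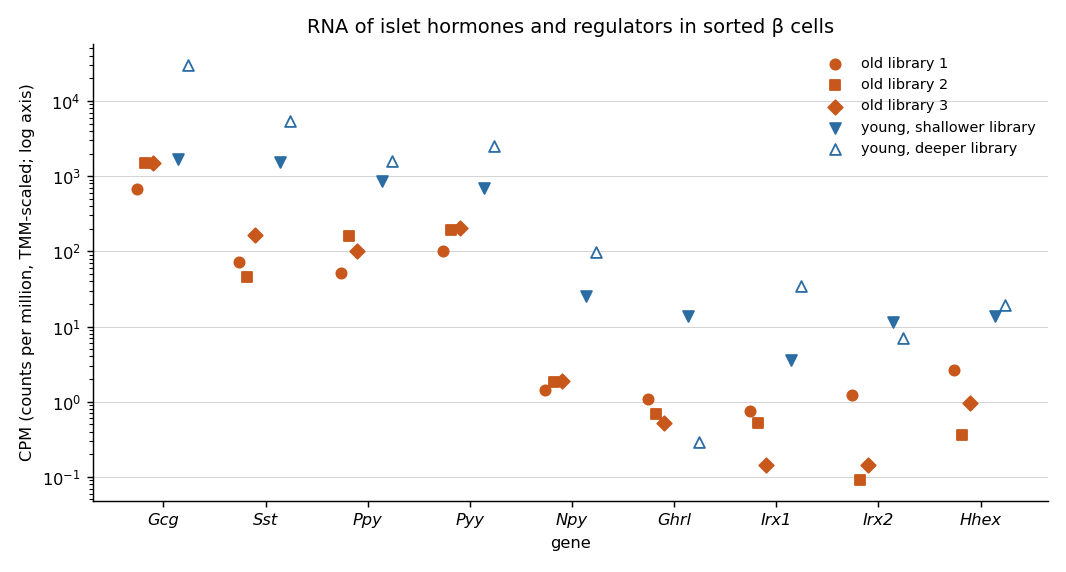
Level of each gene in CPM on a log axis, for 3 old libraries (filled orange symbols) and 2 young libraries (blue triangles). Each symbol is 1 library; all old symbols lie below both young ones except for Ghrl, and for Gcg the shallower young library, at 1668 CPM, lies just above the highest old library, at 1506 CPM.

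Gcg was read at 683, 1476 and 1506 CPM in the old libraries, against 1668 and 30377 CPM in the shallower and deeper young libraries. The old libraries lay below both young ones, but the young libraries differed from each other by 18.2-fold, more than any old library differed from the shallower young one. The fitted log2 change was -3.71 (SE 0.94, edgeR adjusted p = 0.0432). Without the deeper young library it was -0.44 (adjusted p = 0.412), so the size of the fall in Gcg rested on that library.

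Sst was read at 71.8, 44.9 and 165 CPM in the old libraries, against 1546 and 5426 CPM in the shallower and deeper young libraries. The lowest young value was 9.35-fold above the highest old value, so the groups were well apart. The log2 change was -5.21 (SE 0.68, edgeR adjusted p = 0.00657), and Sst was called under each of the 9 alternative settings tried. Its smallest change was -4.03, without the deeper young library.

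Ppy was read at 50.8, 160 and 101 CPM in the old libraries, against 869 and 1577 CPM in the shallower and deeper young libraries. Of the hormone genes that fell, Ppy had the closest young libraries, which differed by 1.81-fold, and its log2 change was -3.56 (SE 0.47, edgeR adjusted p = 0.00672). Pyy, whose start lies 6476 bases from that of Ppy on chromosome 11, was read at 102.1, 193 and 205 CPM in the old libraries, against 704 and 2489 CPM in the shallower and deeper young libraries. Both genes were thus lower in every old library, with a log2 change of -3.26 for Pyy (SE 0.52, edgeR adjusted p = 0.0121). Without old library 3, neither call held, at adjusted p = 0.0533 for Ppy and 0.0619 for Pyy.

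Npy was read at 1.43, 1.82 and 1.90 CPM in the old libraries, against 25.8 and 97.2 CPM in the shallower and deeper young libraries. The old values were the tightest of all 9 genes, within 1.33-fold of each other, and the log2 change was -5.16 (SE 0.61, edgeR adjusted p = 0.00523). Npy and Sst were the only members called in the main test and in all 9 alternatives.

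Ghrl differed from the other hormones. Its counts were 29, 23 and 11 in the old libraries (1.09, 0.70 and 0.52 CPM), against 94 in the shallower and 4 in the deeper young library (13.9 and 0.29 CPM). The old values lay between the young ones, so the groups overlapped, and the log2 change of -3.19 did not pass the test (SE 1.42, edgeR adjusted p = 0.178). It was -4.15 without the deeper young library (adjusted p = 0.00816) and +1.40 without the shallower one (adjusted p = 0.679). The young libraries differed 48.2-fold for Ghrl, in the opposite direction to Gcg.

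Among the regulators, Irx1 was read at 0.75, 0.51 and 0.14 CPM in the old libraries, against 3.55 and 35.1 CPM in the shallower and deeper young libraries. Like Gcg, it was higher in the deeper young library, by 9.89-fold, and its log2 change of -5.34 (SE 1.13, edgeR adjusted p = 0.0270) compares with -2.89 (adjusted p = 0.196) without that library. Irx2 was read at 1.24, 0.091 and 0.14 CPM in the old libraries, against 11.5 and 7.00 CPM in the shallower and deeper young libraries. The groups did not overlap, yet counts were 33, 3 and 3 in the old libraries, and the log2 change of -4.22 did not pass the test (SE 1.30, edgeR adjusted p = 0.0715). It passed with DESeq2 (adjusted p = 0.00578) and without the deeper young library (adjusted p = 0.0299). Hhex was read at 2.63, 0.36 and 0.95 CPM in the old libraries, against 13.9 and 19.0 CPM in the shallower and deeper young libraries. Its young libraries were the closest of all 9 genes, its old libraries spanned 7.24-fold, and its log2 change was -3.65 (SE 0.92, edgeR adjusted p = 0.0427). Without 1 old library, Gcg, Irx1 and Hhex were not called in any of the 3 refits, at adjusted p = 0.0672 to 0.136.

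**Figure D2:**
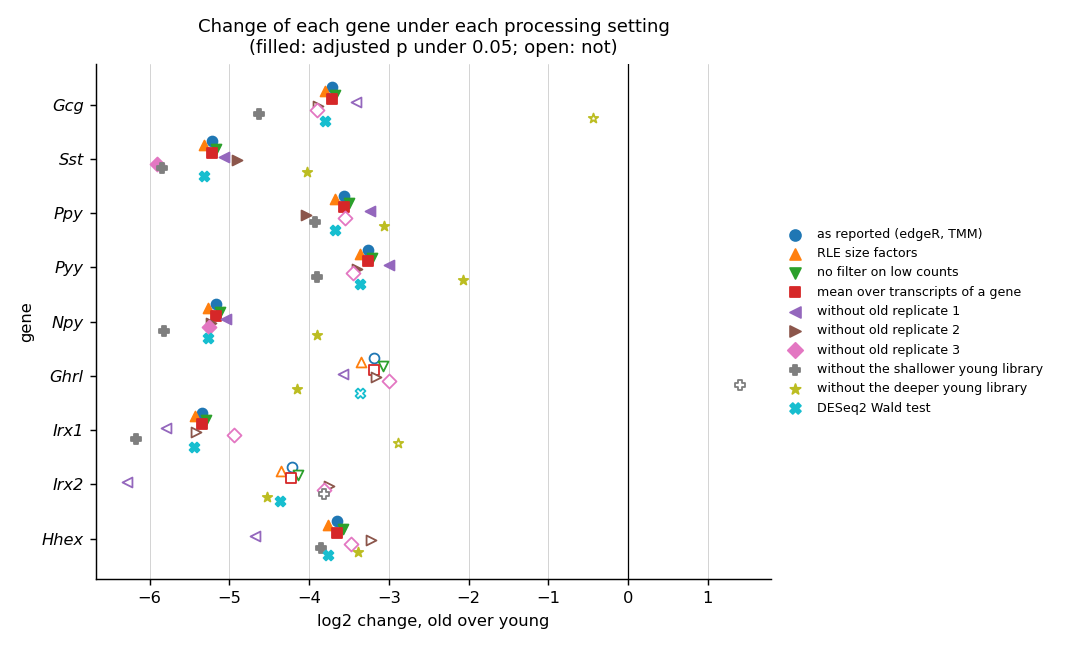
Log2 change of each gene, old over young, as reported and under each of 9 other settings (1 symbol per setting; filled symbols have an adjusted p under 0.05). Sst and Npy are filled throughout, Gcg moves to -0.44 without the deeper young library, and Ghrl crosses 0 to +1.40 without the shallower one.

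The order of the hormones was read from the second deposited table, a signal scaled to transcript length but not to depth, in which the column of old library 3 repeats that of the shallower young library and was not used for old cells. Relative to the Ins2 signal of the same library, the Gcg signal was 0.386% and 0.781% in old libraries 1 and 2, against 0.905% in the shallower and 29.9% in the deeper young library. The Sst signal was 0.0738% and 0.0435% of Ins2 in old libraries 1 and 2, against 1.53% and 9.73% in the shallower and deeper young libraries. Gcg had the highest length-scaled signal of the 9 genes in both old libraries and in the deeper young one, whereas Sst led in the shallower young one. Npy had rank 5 in each of these 4 libraries, and Ghrl, Irx1, Irx2 and Hhex came below it. These shares have no replicate error beyond the libraries listed.

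Genes whose level over the 5 libraries ran closest to each member were found by the root mean square difference of centred log2 CPM, among 11200 non-member genes with a mean of at least 5 CPM. For Ppy the closest was Spats2l, at 0.09 log2 units, the smallest distance of any member, followed by Crip2 and Synpo2. The Npy profile lay nearest to Aebp1 (0.16), Lama2 and Top2a, that of Pyy to Sparcl1 (0.20), Ahnak and Rbp4, and that of Hhex to Pcdh17 (0.26), Try4 and Egfl7. For Sst the nearest were Slit2 (0.26) and Mmp14, for Gcg Arhgef15 (0.37), Abca8a and Wwtr1, for Irx1 Lrrc32 (0.31), Cryab and Nid2, and for Irx2 Nusap1 (0.37), C530008M17Rik and Kif20b. Ghrl lay nearest to Zfp937 (0.30), Ccdc125 and Mmp19, which were likewise higher in the shallower than in the deeper young library, and none of these 3 passed the test. With 5 libraries, a short distance describes these libraries only.

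Of 18 tested α-cell genes, 5 fell and none rose, against 7.93% and 3.17% of all tested genes. Of these 5, Etv1, Nxph1 and Fev are not among the 9. The lists share some genes: Etv1 is also in the δ-cell list and in the PP-cell and ε-cell list, so its fall counts in each. Nxph1, which encodes a neurexin ligand, was read at 3.19, 3.60 and 3.42 CPM in the old libraries, against 30.8 and 19.9 CPM in the shallower and deeper young libraries (log2 change -2.89, edgeR adjusted p = 0.0168). The α-cell list without its members summed to 2557, 2536 and 2753 CPM in the old libraries, against 2469 and 3850 CPM in the shallower and deeper young libraries, so old and young sums overlapped. Fev, a serotonergic ETS factor, was read at 0.038, 0.030 and 0.048 CPM in the old libraries, against 0.89 and 6.42 CPM in the shallower and deeper young libraries (log2 change -6.39, edgeR adjusted p = 0.0377). The median log2 change was -2.75 over the 18 genes and -1.58 over the 15 that are not among the 9. With any 1 old library left out no α-cell gene was called, and without the deeper young library 2 fell and 1 rose, with a median of -0.73.

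Of 14 tested δ-cell genes, 6 fell and 1 rose, against 7.93% and 3.17% of all tested genes. Without Sst and Hhex, 4 of 12 fell and 1 rose, and the examples are of those that fell. Rbp4, a retinol-binding protein, was read at 5.82, 12.9 and 8.98 CPM in the old libraries, against 42.6 and 124 CPM in the shallower and deeper young libraries (log2 change -3.18, edgeR adjusted p = 0.0142). Ghsr, the ghrelin receptor of δ cells, was read at 0.45, 0 and 0.19 CPM in the old libraries, against 50.2 and 3.25 CPM in the shallower and deeper young libraries (log2 change -6.95, edgeR adjusted p = 0.0288). Like Ghrl, it was higher in the shallower young library. Arg1, an arginase, was read at 0.79, 2.24 and 0.81 CPM in the old libraries, against 5.48 and 29.3 CPM in the shallower and deeper young libraries (log2 change -3.76, edgeR adjusted p = 0.0408).

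Against 7.93% of all tested genes that fell, 6 of 12 tested PP-cell and ε-cell genes fell and none rose. Beside Ppy, Pyy and Npy these were Fxyd6, a regulator of the sodium pump, Etv1, an ETS factor, and Ptger3, a prostaglandin E receptor. Fxyd6 was read at 19.5, 12.7 and 31.9 CPM in the old libraries, against 52.3 and 146 CPM in the shallower and deeper young libraries (log2 change -2.21, edgeR adjusted p = 0.0348). Ptger3 was read at 0.038, 0 and 0.29 CPM in the old libraries, against 9.77 and 9.67 CPM in the shallower and deeper young libraries (log2 change -6.51, edgeR adjusted p = 0.0335). The median log2 change was -3.30 for the δ-cell list and -3.22 for the PP-cell and ε-cell list, and -3.11 and -2.06 without the members. Without its members, the δ-cell list summed to 427, 548 and 329 CPM in the old libraries, against 359 and 559 CPM in the shallower and deeper young libraries. The PP-cell and ε-cell list without its members summed to 381, 333 and 414 CPM in old libraries, against 381 and 599 CPM in young ones. Old and young sums thus overlapped for both lists. With 1 old library left out, 1 to 2 δ-cell genes and 1 to 3 PP-cell and ε-cell genes fell.

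Other peptide genes did not share one direction. Of 19 tested, Iapp and Scg2 rose and Vip, Cartpt, Adcyap1 and Calca fell. Vip, vasoactive intestinal peptide, was read at 0.34, 0 and 0.19 CPM in the old libraries, against 5.33 and 288 CPM in the shallower and deeper young libraries (log2 change -9.74, edgeR adjusted p = 0.0151). Cartpt, the CART peptide, was read at 0.11, 1.15 and 1.95 CPM in the old libraries, against 25.5 and 25.2 CPM in the shallower and deeper young libraries (log2 change -4.57, edgeR adjusted p = 0.0275). Adcyap1, which encodes PACAP, had no count in the old libraries and 157 in the young ones, which makes it at least 205-fold lower in old cells against a floor of 3 counts over the old group. Iapp, the amylin gene of β cells, had a log2 change of 1.31 (edgeR adjusted p = 0.0245) and Scg2, a granule protein, one of 1.31 (adjusted p = 0.0163). Among 10 tested enzymes that process hormones, Scg5, the chaperone of prohormone convertase 2, rose by 1.38 on the log2 scale (edgeR adjusted p = 0.0163), and Qpct, which cyclises N-terminal glutamine, fell by 4.72 (adjusted p = 0.0451). Ghsr was the 1 gene called among 9 tested receptors, and Fev the 1 among 18 tested endocrine transcription factors.

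Genes of cells outside the endocrine islet also differed between these libraries. All 18 stellate and fibroblast markers fell, and their summed level was 28.0 to 43.6 CPM in the old libraries, against 699 and 5875 CPM in the shallower and deeper young libraries. Of 19 tested acinar markers 14 fell, with a sum of 228 to 251 CPM in the old libraries, against 2070 and 2636 CPM in the shallower and deeper young libraries. Of 15 endothelial markers 14 fell, with a sum of 88.5 to 136 CPM in the old libraries, against 717 and 1627 CPM in the shallower and deeper young libraries. No stellate, endothelial or duct marker was at 0 in all old libraries, and of the acinar markers Ptf1a was. Of 15 duct markers 5 fell, of 17 immune markers 4, of 10 Schwann and neuronal markers 1, and of 17 proliferation genes 6, and none rose. Without old library 3, 4 stellate, 10 acinar and 5 endothelial markers fell. The part of these other cells in the fall of the 9 genes was not tested. The labelled cell type was checked on 20 β-cell markers, which all had counts, with a sum of 337479 to 442117 CPM in the old libraries, against 319647 and 259965 CPM in the shallower and deeper young libraries. Of these, 5 rose and none fell, and none rose without old library 1 or 2.

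The promoters of the 9 genes fell into 2 kinds. In the window 1000 bases before to 500 after the start, Npy, Irx1, Irx2 and Hhex held 75 to 149 CpGs with at least 5 calls in both libraries and were methylated at 4.49 to 10.1% in old and 4.84 to 11.2% in young cells. Gcg, Ppy, Pyy and Ghrl held 12 to 33 such CpGs and were methylated at 58.6 to 87.0% in old and 47.8 to 88.6% in young cells. Sst lay between, with 38 CpGs methylated at 18.9% in old and 20.4% in young cells. Fisher's exact test on summed calls, adjusted over 21369 promoters and with a least difference of 10 percentage points, called Pyy higher and Gcg lower in old cells. Across all promoters 9.20% were called, 4.10% higher and 5.10% lower, and among those 40 to 90% methylated in young cells 10.1% were called higher and 9.45% lower. With 1 library per age this test compares those libraries and not the ages, and the intervals cover counting error only.

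Pyy promoter methylation was 71.9% of 843 calls in old (95% Wilson interval 68.8 to 74.8) and 47.8% of 846 calls in young cells (44.4 to 51.1). The difference of 24.1 points (Fisher's exact test, adjusted p = 1.03e-22) lay at the 99.5th percentile of all promoters, and 25 of its 33 CpGs were higher in old cells. Split at the start, a description chosen after the values were seen, the difference was 11.4 points before it and 31.7 points after it. After the start, 59.3% of 459 calls were methylated in old and 27.6% of 490 calls in young cells. In the printed Pyy sequence, 74.9% of 171 calls were methylated in old and 66.4% of 137 calls in young cells, with 4 of 5 CpGs higher in old cells. The largest of these differences was at the last CpG, 74 bases before the deposited start, with 7 of 7 calls methylated in old and 9 of 25 in young cells, and the smallest was 0.68 points. The difference was called under all 5 alternative windows and coverage limits, between 15.0 and 26.2 points.

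Ppy, the neighbour of Pyy, was methylated at 83.8% of 389 calls in old (79.8 to 87.1) and 77.0% of 417 calls in young cells (72.7 to 80.8), a difference of 6.83 points that missed the 10-point limit. In its printed sequence, 3 of 4 CpGs were higher in old cells, with 93.6% of 78 calls methylated in old and 76.1% of 176 calls in young cells.

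Gcg promoter methylation was 58.6% of 251 calls in old (52.4 to 64.5) and 71.1% of 204 calls in young cells (64.5 to 76.9), a difference of -12.5 points (Fisher's exact test, adjusted p = 0.0130). Of its 16 CpGs, 9 were lower and 4 higher in old cells. In the printed 250 bases, 33.3% of 75 calls were methylated in old (23.7 to 44.6) and 78.6% of 56 calls in young cells (66.2 to 87.3). The CpG at base -178 had 3 of 19 calls methylated in old and 6 of 6 in young cells, and that at -168 had 3 of 12 in old and 6 of 6 in young cells. Coverage there was thin, and with at least 10 calls per CpG the difference over the window was -1.82 points on 7 CpGs and not called. With 2000 bases on each side it was -3.70 points and not called.

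**Figure D3:**
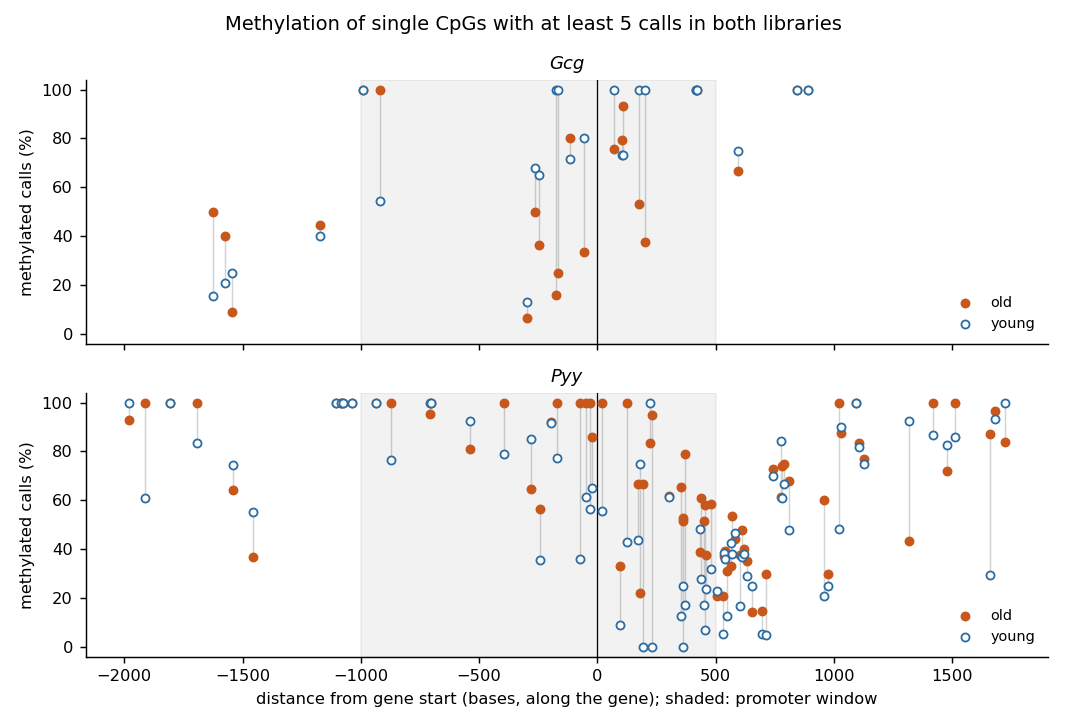
Methylation of single CpGs with at least 5 calls in both libraries, by distance from the start of Gcg (upper panel) and Pyy (lower panel), in old (filled) and young (open) β cells. At Pyy the old values lie above the young ones at 25 of the 33 CpGs in the shaded window, and at Gcg they lie below at 9 of 16.

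Sst differed by -1.45 points over its window (Fisher's exact test, adjusted p = 0.418). Of the 8 CpGs in its printed sequence 3 were higher and 5 lower in old cells. The CpG within its cyclic AMP response element had 7 of 47 calls methylated in old cells (14.9%, Wilson interval 7.41 to 27.7) and 0 of 29 in young cells (0 to 11.7). The CpG at base -15 had 6 of 39 calls methylated in old and 0 of 20 in young cells, and the CpG at base -189 had 1 of 13 calls methylated in old and 4 of 5 in young cells. Hhex promoter methylation was 5.96% of 7953 calls in old and 11.2% of 11972 calls in young cells, a difference of -5.20 points under the 10-point limit. After the start alone it was 4.84% in old and 15.5% in young cells, whereas before the start it was 7.12% in old and 6.09% in young cells. Within the printed 250 bases it was 5.20% of 1499 calls in old and 9.45% of 1694 calls in young cells, with 18 CpGs lower and 13 higher in old cells. Irx1, Irx2, Npy and Ghrl differed by -1.58 to 3.14 points. Among β-cell genes, Ins1 was methylated at 9.68% in old and 54.8% in young cells and Ins2 at 23.8% in old and 34.5% in young cells, both called lower. Iapp, with 23 of 116 calls methylated in old and 33 of 103 in young cells, was not called (Fisher's exact test, adjusted p = 0.0765).

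**Figure D4:**
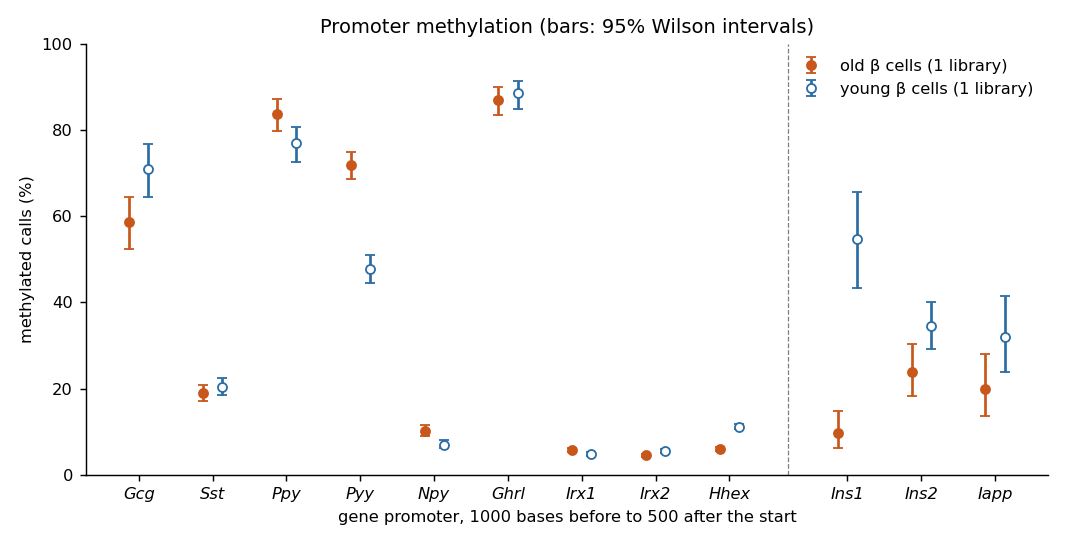
Methylated share of calls in each promoter window in old (filled) and young (open) β cells, 1 library each, with 95% Wilson intervals, for the 9 genes and, right of the dashed line, for the β-cell genes Ins1, Ins2 and Iapp. Pyy stands at 71.9% in old and 47.8% in young cells, and the promoters of Npy, Irx1, Irx2 and Hhex lie at or below 11.2% in both.

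Within 50 kb of the start, methylation was 0.65 points lower to 6.78 points higher in old cells, with a median of 4.80 points over the 9 genes and 2.57 over all genes. With CpGs above 100 calls left out, the medians were 2.59 points over the 9 genes and 1.95 over all genes, and within 10 kb 1.96 and 1.88 points. Counts of single CpGs ran against the sums within 50 kb for Hhex, Npy and Pyy. Near Hhex 298 CpGs were higher and 442 lower in old cells, near Npy 277 higher and 307 lower, and near Pyy 638 higher and 640 lower. For the other genes the counts shared the direction of the sums, though near Irx2, Ppy and Ghrl they were close. They stood at 458 higher and 455 lower near Irx2, 634 higher and 627 lower near Ppy, and 515 higher and 499 lower near Ghrl. Within 50 kb, Sst and Gcg had the lowest differences, old minus young, at -0.65 and -0.15 points. Sst was methylated at 67.9% in old and 68.5% in young cells, and Gcg at 78.8% in old and 79.0% in young cells. Ghrl had the highest difference, with 53.5% in old and 46.8% in young cells, and lay at the 90.6th percentile of all genes. Its difference was 2.21 points with CpGs above 100 calls left out. Within 10 kb, Npy had the largest difference, with 42.5% in old and 33.4% in young cells, at the 96.0th percentile, and Sst the lowest, with 46.9% in old and 52.4% in young cells, at the 3.75th percentile.

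H3K27me3 lay over the whole promoter window of 8 of the 9 genes in both old and young cells, all but Ghrl. Over all genes, 41.1% of windows touched a region of the old list, 27.6% one of the young list and 22.9% both. The lists differed in length, with 38007 regions in old and 31187 in young cells, both of median length 9 kb, so their counts show no change by themselves. The promoter windows of the insulin genes Ins1 and Ins2 also touched a region of the old list, and none of the young list. The Sst start sat in a region of 23 kb in old and 183 kb in young cells, and the Hhex start in one of 35 kb in old and 54 kb in young cells. Gcg lay in a region of 38 kb in old and 35 kb in young cells, Irx1 in one of 106 kb in old and 105 kb in young cells, and Irx2 in one of 71 kb in old and 98 kb in young cells. Ppy and Pyy shared a region of 11 kb in young cells, and in old cells each lay in a region of its own of 5 kb. Within 50 kb of the start H3K27me3 covered 96.6% in old and 90.6% in young cells for Irx2, 91.0% in old and 86.8% in young cells for Irx1, and 76.1% in old and 97.1% in young cells for Sst. Npy had 70.0% covered in old and 92.0% in young cells, Gcg 77.7% in old and 68.7% in young cells, and Ghrl 5.87% in old cells and none in young cells. The median over all genes was 27% in old and 12% in young cells. By the deposited score, the authors' own value for each region, Sst ranked 603 of 38007 in old and 320 of 31187 in young cells. Of the regions at the 8 starts, it ranked highest in both lists. The lowest were that of Pyy in old cells, at rank 10985, and that shared by Ppy and Pyy in young cells, at 4954. In the 50% of each list with the higher score the 8 genes still had a region in both ages, against 18.1% of all genes. Taken singly, 32.5% of all genes had such a region in the old list and 22.9% in the young list.

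H3K27ac, a mark of active promoters and enhancers, was read in young cells only. No region touched the promoter window of any of the 9 genes, against 34.1% of all genes, whereas Ins1, Ins2 and Iapp each had one. Within 50 kb, 61.1% of all genes had a region, and among the 9 this held for Ghrl alone, with regions 20.6 kb before and 22.2 kb after its start. The gene start nearest to the first region was that of Sec13, and to the second that of Tatdn2, not that of Ghrl.

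**Figure D5:**
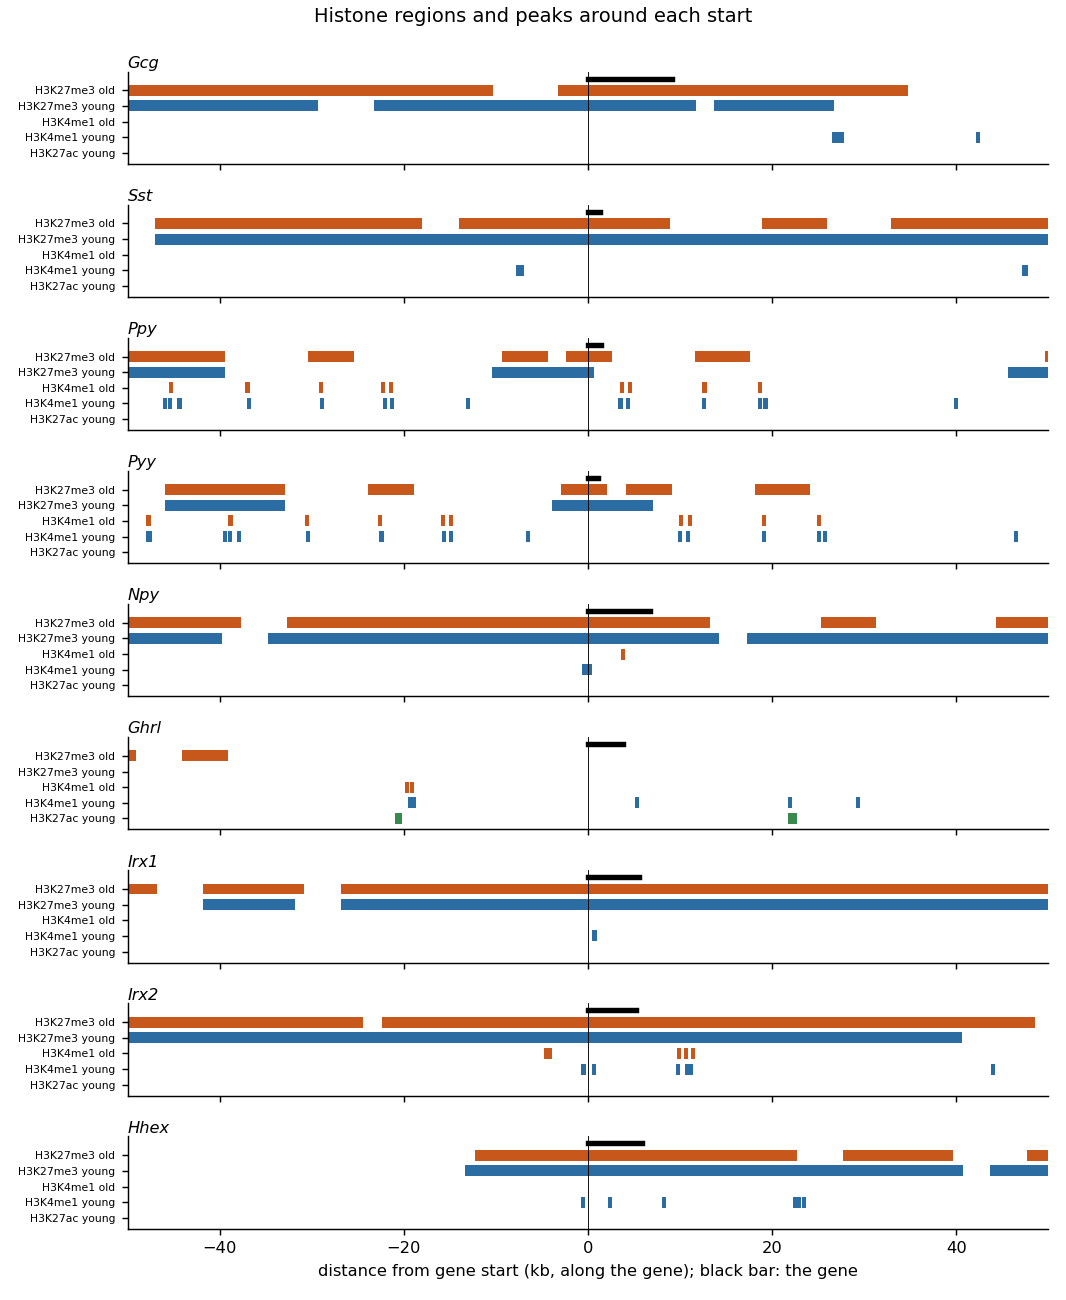
Regions and peaks within 50 kb of each start, by distance along the gene, with old lists in orange, young lists in blue and young H3K27ac in green. Narrow peaks are widened to be visible. H3K27me3 spans every start but that of Ghrl in both ages. H3K27ac appears in the Ghrl panel alone, in regions nearest to the starts of Sec13 and Tatdn2.

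H3K4me1, a mark of enhancers and of the flanks of promoters, touched the promoter window of none of the 9 genes in old cells, against 22.4% of all genes, and of Npy, Irx1, Irx2 and Hhex in young cells, against 37.8%. The old list holds 36207 peaks and the young list 77291. All 4 of these promoters also carried H3K27me3 in young cells, a pair of marks found at 11.5% of all promoters. In the 50% of the young list with the higher score, H3K4me1 touched the window of Npy alone, against 29.4% of all genes. Within 50 kb, old cells had 18 different peaks near the 9 genes and young cells 44, beside a median per gene of 2 in the old and 5 in the young list over all genes. Gcg, Sst, Irx1 and Hhex had no H3K4me1 peak within 50 kb in old cells, and had 4, 4, 1 and 6 in young cells. In the 50% of the young list with the higher score, Gcg, Irx1 and Hhex had none and Sst had 3. At least 1 peak within 50 kb was held by 5 of the 9 genes in old cells, against 76.4% of all genes, and by 9 of the 9 in young cells, against 86.3%.

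Methylation was tested in the H3K4me1 peaks with at least 3 CpGs. Of 27 tested peaks of the young list near the 9 genes, 8 were lower and 1 higher in old cells, against 17.1% lower and 9.65% higher among all peaks of that list. Of 9 tested peaks of the old list, 2 were lower and none higher, against 16.6% lower and 10.2% higher among all peaks of that list; called in either direction were 26.7% of each list. The largest difference was at a young peak 3.36 kb downstream of the Ppy start (mm9 chr11:101959188-101959314), with 29.6% of 54 calls methylated in old and 86.2% of 58 calls in young cells (Fisher's exact test, adjusted p = 2.26e-08). The Ppy and Pyy windows overlap, and they shared this peak with others that were lower. One lay 37.0 kb upstream of Ppy, at 18.8% in old and 55.6% in young cells, and the gene start nearest to it was that of Nags. Another lay 19.1 kb downstream of Ppy, at 16.9% in old and 53.0% in young cells, and was nearest to the start of Mpp2. The 1 higher peak also lay in both windows and was nearest to the start of Nags. Near Irx2, a young peak 11.1 kb downstream of the start was methylated at 1.61% in old and 23.9% in young cells (adjusted p = 1.37e-06), and an old peak 9.75 kb downstream at 7.69% in old and 29.2% in young cells (adjusted p = 0.000479). Near Npy, an old peak 3.67 kb downstream of the start was methylated at 4.94% of 81 calls in old and 21.6% of 97 calls in young cells (adjusted p = 0.00771). The Gcg peak 26.9 kb downstream of the start, at 43.2% of 37 calls in old and 69.4% of 49 calls in young cells (adjusted p = 0.0465), and the Hhex peak 23.3 kb downstream, at 6.96% in old and 20.3% in young cells (adjusted p = 0.0352), were nearer to the threshold. With at least 10 calls per CpG, 5 young peaks were lower and 1 higher: the Gcg peak and the one 37.0 kb upstream of Ppy had too few CpGs for a test, and one 13.2 kb upstream of Ppy lost its call (adjusted p = 0.137). No peak near Sst, Ghrl or Irx1 was called.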

How the data were processed

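Old and young sorted mouse β cells were compared by RNA-seq (3 and 2 libraries), peak lists of histone marks and bisulfite sequencing (1 library per age). Build mm9 and the tools Bowtie 0.12.7, CASAVA 1.8.2, edgeR, HOMER and STAR come from the submitters' processing notes, which were read without roles. The authors deposited whole read counts per transcript, and the transcript with the highest count stood for a gene. The second deposited table, named FPKM, was used as a signal for shares within a library and for positions. H3K27ac and H3K4me1 lists are HOMER findPeaks output, per the file headers, with limits of 0.01 on the false discovery rate, 0.0001 on the p-value and 2 on the fold, both relative to input. Ranks inside 1 list at a time used the deposited HOMER score of each peak, and the unlabelled score column of the H3K27me3 lists. No source used here names a caller for the H3K27me3 lists. The deposited fold and p-value columns were not used for ranks. The deposited bisulfite tables give a methylated fraction and a coverage per CpG (median 18 calls in the old and 16 in the young library), from which whole calls were recovered to within 1.9e-08.

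Counts were tested with edgeR 4.0.16 (R 4.3.3; quasi-likelihood, TMM, filterByExpr, two-sided, Benjamini-Hochberg, 0.05), old over young. Methylation was tested with Fisher's exact test, two-sided (scipy 1.17.1), at adjusted p under 0.05 and at least 10 points, over windows with at least 3 CpGs of at least 5 calls. An overlap of 1 base counted for histone regions. Both tests were tried on simulated data. The RNA test called 66% of genes with a true log2 change of -4 or 4, 44% at -2 and 22% at 2. Genes that did not pass can thus have changed. The methylation test called 100% of windows at a true difference of 25 points and 80% at 15 points, in either direction. Strandedness of the counting was not given in the sources used here. No member has an overlapping gene or a second transcript in the deposited table. The members and the gene lists were chosen with earlier results of these data known. Named in the text are all members, up to 4 called genes of a list with the smallest adjusted p, the 3 nearest profiles of each member and up to 3 called peaks per member. Some genes that this rule names are not reported here. Of the 16 lists, those of other cell types are given by counts. The alternatives were RLE factors, DESeq2 1.42.0, no filter, the mean over transcripts, each library left out, other coverage limits, windows and overlaps, and the 50% of each list with the higher score. Input libraries were not analysed here.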

Additional observations from a re-analysis of the deposited data

How the results depend on the processing

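Of 81 refits of the 9 members' RNA changes, 64 kept their direction and their side of the threshold, 13 kept the direction and lost the call, 3 gained a call and 1 reversed. Of 592 refits of the other named genes, 446 stayed as reported, 132 lost the call, 11 gained one and 3 reversed. Called members numbered 7 with RLE factors, without a filter and with the mean over transcripts, 8 with DESeq2, and 2 to 4 when 1 old library was left out. Without old library 3, 2 were called. Without 1 young library, the lone young sample is assumed to vary like the old ones. Called genes of the whole table numbered 1724, against 3562 with DESeq2 and 219 to 5467 when 1 library was left out, the highest without the deeper young library. With 1 library left out, the log2 change of Ghrl lay between -4.15 and 1.40, and those of its profile neighbours between -3.59 and 1.30 (Zfp937), -4.62 and 1.25 (Ccdc125) and -3.68 and 0.97 (Mmp19), each positive without the shallower young library. The median of all genes was -0.05 with TMM and -0.17 with RLE factors, and no member's direction changed between them. Called promoters were 1 in place of 2 with at least 10 calls per CpG and with 2000 bases on each side of the start, as Gcg was lost. The Ghrl promoter difference was 1.81 points with 2000 bases on each side. In the old H3K4me1 list 1 peak in place of 2 was called among the 50% with the higher score, which holds fewer peaks. The median difference within 50 kb was 2.59 points with CpGs above 100 calls left out and 1.96 points within 10 kb, against 4.80 as reported, and the cause was not tested. No H3K27me3 region had 50% of its length inside a promoter window, which is shorter than every region, so 0 members were covered there. No paired analysis was possible because no label links an old library to a young one. Depth limits Ghrl, Irx1 and Irx2, with 3 to 33 counts in an old library, and the Gcg promoter CpGs.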
